A study of Mus musculus with 12 samples.

Results

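The expression of 10 genes of ependymal motile cilia was examined in cultured mouse astrocytes (ASTs), in spheres made from them (A-iSCs) and in neural cell preparations of adult and newborn mice (P56-NPCs and P0-NPCs). The genes were Foxj1, Mcidas, Tmem212, Ccdc153, Dynlrb2, Rsph1, Rsph4a, Hydin, Spag17 and Spef2, which were chosen by gene name among the 55862 genes of the deposited expression table. RNA of 12 mouse samples was sequenced, 3 in each of 4 groups. All are labelled C57BL/6, and the study's methods give C57BL/6J for both NPC groups, and neither NPC preparation is described as sorted. ASTs were primary astrocytes from the cerebral cortex of pups at postnatal day 1 to 2, grown as a monolayer in medium with serum and collected at 0 days of incubation. A-iSCs were the same kind of astrocytes after 5 days as floating spheres on agarose, with no added gene. P56-NPCs were dissociated from the subependymal zone of adults (postnatal day 56). P0-NPCs came from the hippocampus of newborns (postnatal day 0), also as a suspension. The labels do not say which samples came from separate animals or cultures, so that the p-values measure the spread between these samples, which may be technical.

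Ependymal cells form the lining of the brain ventricles and carry tufts of beating cilia that move the cerebrospinal fluid. They border the subependymal zone, and the choroid plexus, another ciliated epithelium of the ventricles, lies beside the hippocampus. A cell becomes multiciliated when Gmnc and Mcidas, which act with the E2F factors, switch on genes for building many basal bodies and then Foxj1, the master transcription factor of motile cilia. The shaft of the cilium, the axoneme, consists of a ring of microtubule doublets with dynein arms as motors, nexin links and radial spokes around a central pair of microtubules. Rsph1 and Rsph4a are subunits of the radial spoke head, whereas Hydin, Spag17 and Spef2 belong to the central pair apparatus. Dynlrb2 is a dynein light chain of the roadblock type, and Tmem212 and Ccdc153 are widely used as markers of ependymal cells.

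Levels are given in FPKM, the number of sequenced fragments per kilobase of gene, scaled to the size of the library, which allows levels of different genes to be set side by side. The fragments behind each value could be recovered, and they ranged from 17077780 to 24452419 per sample, so that 3 fragments on a gene of 1 kilobase were 0.103 to 0.187 FPKM. Mitochondrial genes took 2.94 to 17.6% of the fragments, with the highest shares in P56-NPCs. Differences were tested with limma on log2(FPKM + 1) over all genes with a mean of at least 1 FPKM in either group, and an adjusted p under 0.05 (Benjamini-Hochberg) was taken as a call. Because 1 is added to the FPKM, such log2 differences understate the changes of low genes, and the recovered fragments were therefore also tested with limma-voom. The samples are bulk RNA, in which fewer cells of a type and less RNA per cell cannot be told apart.

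Promoters of the 10 genes were inspected for the X-box, the site of RFX factors that is common in promoters of ciliary genes, since 9 of the 10 genes had their highest mean FPKM in the same group (for Foxj1 the order turned with scaling by library size alone). RefSeq promoters on GRCm38.p6, from 250 bases before to 50 bases after the start of transcription, were found for 7 of the 10 genes. The 6-base X-box core GTTGCC was present on either strand in 5 of these 7 promoters (71.4%), compared with 49.3% of 75 other motile cilia genes, 47.8% of 23 primary cilium genes and 14.1% of the 27025 genes with a promoter of the same length, counted in the same way (12.5% of all 32851 promoters, of which a gene can have several). The stretches around these cores read as follows, 5′ to 3′ on the strand of the gene, with the core in capitals (GGCAAC is the same core read on the other strand).
Hydin (chr8:110266937-110266996, plus strand): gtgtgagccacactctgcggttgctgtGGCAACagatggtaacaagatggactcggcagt
Dynlrb2 (chr8:116504937-116504996, plus strand): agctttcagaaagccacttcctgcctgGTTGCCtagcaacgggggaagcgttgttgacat
Ccdc153 (chr9:44240498-44240557, plus strand): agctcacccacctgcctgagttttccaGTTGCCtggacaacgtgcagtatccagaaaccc
Mcidas (chr13:112993646-112993705, plus strand): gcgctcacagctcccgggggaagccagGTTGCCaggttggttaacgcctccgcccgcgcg
Spef2 (chr15:9748843-9748872, minus strand): ccttagcaactgGTTGCCctgggcgacggg

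The cores started 13, 51, 152 and 195 bases before the RefSeq start of transcription in Hydin, Dynlrb2, Ccdc153 and Mcidas, and at base 9 of the transcript (counting its first base as 1) in Spef2. The letters GTTGCC were not in the windows of Tmem212 and Spag17. The paired X-box was searched only as GTTNCC followed after 1 to 3 bases by GGNAAC. This strict pattern was in 0 of the 7 windows and in 0.776% of all promoters. It leaves out pairs whose second part begins with A. In the Dynlrb2 stretch, and on the other strand in the Hydin stretch, GTTGCC is followed within that spacing by AGCAAC. Such looser pairs were not counted, so the 0 does not mean that paired sites were absent. The forkhead motif TGTTTAC, of the kind bound by FOXJ1, was in 0 of the 7 windows, in 5.33% of the 75 other motile cilia genes and in 4.05% of all genes (3.65% of all promoters). At such low shares, 0 of 7 windows does not set these genes apart for either motif as searched. A match describes the letters of the window and is not evidence of binding.

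Foxj1 was abundant in every group and did not distinguish A-iSCs from ASTs. Its FPKM was 42.0, 47.6 and 40.4 in the 3 ASTs samples, 39.9, 40.6 and 52.2 in A-iSCs, 63.6, 56.2 and 66.0 in P56-NPCs, and 68.3, 57.6 and 54.4 in P0-NPCs. The ASTs and A-iSCs ranges overlapped, and all 6 NPC samples were above all 6 samples of the other groups in the deposited FPKM. The log2 difference between A-iSCs and ASTs was 0.02 (95% confidence interval -0.32 to 0.37, limma adjusted p = 0.903), and it was -0.10 with upper-quartile scaling. Foxj1 was higher in P56-NPCs than in ASTs by 0.51 (SE 0.10, limma adjusted p = 0.00226) and higher in P0-NPCs than in ASTs by 0.46 (SE 0.12, limma adjusted p = 0.00712). The differences of Foxj1 that involve P56-NPCs depended on how samples were scaled. A-iSCs were lower than P56-NPCs by -0.48 (limma adjusted p = 0.018), but the difference was 0.06 with scaling by library size alone (limma adjusted p = 0.695). In the same way, P56-NPCs and P0-NPCs differed by 0.05 (limma adjusted p = 0.685), and by -0.57 with scaling by library size alone (limma adjusted p = 0.00241). P56-NPCs with ASTs gave 0.17 on that scale (limma adjusted p = 0.147). The gene lies on chromosome 11 (116330704 to 116335399, minus strand) and overlaps no other annotated gene.

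Mcidas, the coactivator at the start of the multiciliation program, was high in P0-NPCs and near the detection limit in the other groups. It was covered by 193, 158 and 195 fragments in P0-NPCs (3.55, 2.28 and 2.98 FPKM), compared with 4, 4 and 5 fragments in ASTs, 4, 1 and 2 in A-iSCs, and 0, 1 and 3 in P56-NPCs. The P0-NPCs samples did not overlap with any other sample. The mean FPKM of P0-NPCs was 29.7 times that of ASTs, and the log2 differences were 1.83 against ASTs (SE 0.13, limma adjusted p = 5.18e-06), 1.90 against A-iSCs (SE 0.14, limma adjusted p = 1.59e-05) and 1.92 against P56-NPCs (SE 0.13, limma adjusted p = 6.51e-06). Mcidas thus departed from the other 9 genes, of which P56-NPCs were the highest group by mean in the deposited FPKM. P56-NPCs had the lowest mean of Mcidas but overlapped with A-iSCs. Without P56-NPCs replicate 1 their mean was 0.0514 FPKM, above the A-iSCs mean of 0.0442, so that the lowest place was not settled.

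Mcidas has neighbours of related function on chromosome 13. Ccno, a cyclin family gene needed for making basal bodies in multiciliated cells, ends 3068 bases before Mcidas (112993845 to 113000394, plus strand), and Cdc20b, a gene of the deuterosome that makes those basal bodies, begins 34717 bases after it. The FPKM of Ccno was 7.46, 6.45 and 7.09 in P0-NPCs and between 0.248 and 1.45 in the other 9 samples. The FPKM of Cdc20b was 7.63, 5.64 and 5.92 in P0-NPCs and at most 0.0589 elsewhere, so that all 3 neighbours were highest in P0-NPCs. Gpx8, which lies between the annotated ends of Cdc20b on the other strand, showed another pattern, with means of 199, 113, 20.4 and 22.7 FPKM in ASTs, in A-iSCs, in P56-NPCs and in P0-NPCs.

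Deup1, Trp73 and Myb were highest in P0-NPCs among the other regulators of multiciliation. Deup1, the deuterosome scaffold, was 7.68, 7.43 and 6.78 FPKM in P0-NPCs and 0.748 to 1.23 in P56-NPCs, a log2 difference of -2.10 for P56-NPCs with P0-NPCs (SE 0.11, limma adjusted p = 1.34e-06). Trp73, a transcription factor upstream of Foxj1, was 6.70 to 7.15 FPKM in P0-NPCs, 1.95 to 2.67 in P56-NPCs and at most 0.249 in ASTs and A-iSCs. Myb, which acts early in multiciliation and also in dividing cells, was 2.62 to 3.00 FPKM in P0-NPCs, 0.914 to 1.51 in P56-NPCs and at most 0.184 in ASTs and A-iSCs. Gmnc had a mean under 1 FPKM in all groups, with 0 to 0.0281 FPKM in ASTs, 0.104 to 0.138 in A-iSCs, 0.239 to 0.730 in P56-NPCs and 0.245 to 0.678 in P0-NPCs, so that the NPC groups overlapped. These values order the groups alike for Deup1, Trp73 and Myb, with P0-NPCs first, P56-NPCs second, and A-iSCs and ASTs lowest.

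The RFX factors and E2F factors were not restricted to the NPCs. Rfx3, which binds X-boxes, was 0.889 to 0.941 FPKM in ASTs, 3.05 to 5.34 in A-iSCs, 3.29 to 3.54 in P56-NPCs and 6.86 to 7.95 in P0-NPCs, and it rose in A-iSCs over ASTs by a log2 difference of 1.33 (SE 0.18, limma adjusted p = 0.000655). Rfx2 also rose in A-iSCs, by 0.52 (SE 0.14, limma adjusted p = 0.0157), from 2.25 to 2.59 FPKM in ASTs to 3.31 to 4.82 in A-iSCs. E2f4 and E2f5, the partners of Mcidas, were at 7.57 FPKM or more in all 12 samples. Neither was called between A-iSCs and ASTs, with log2 differences of -0.26 for E2f4 (limma adjusted p = 0.145) and 0.21 for E2f5 (limma adjusted p = 0.198).

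**Figure D1:**
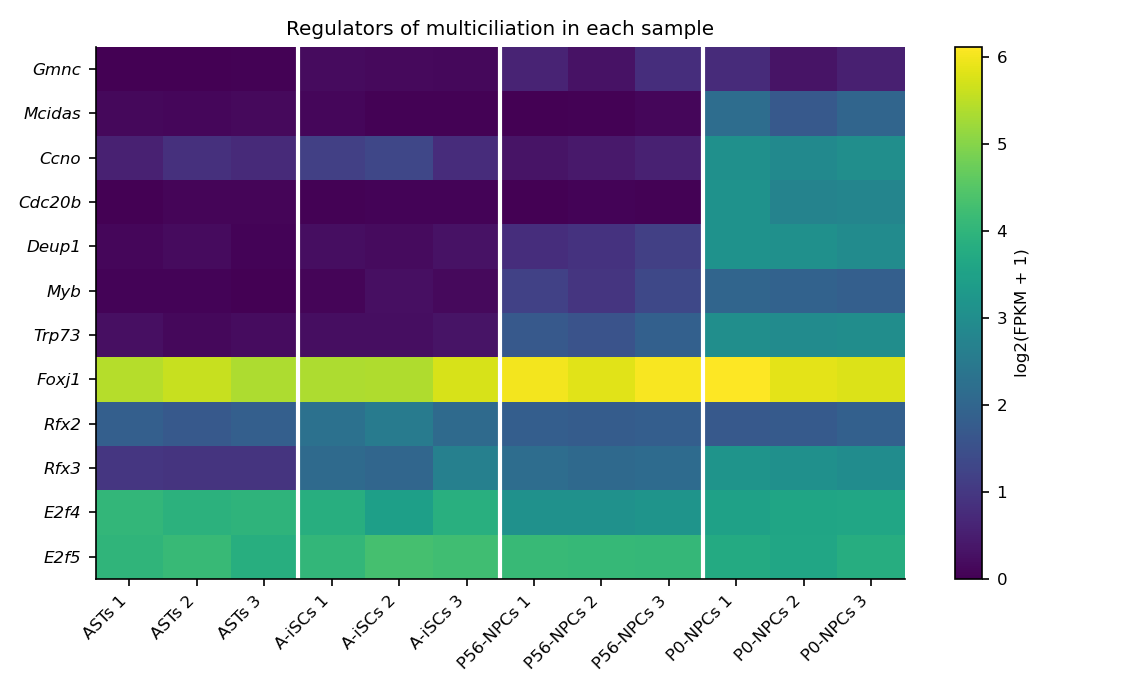
Heat map of log2(FPKM + 1) of 12 regulators of multiciliation (rows) in the 12 samples (columns, grouped from left to right as ASTs, A-iSCs, P56-NPCs, P0-NPCs). Mcidas, Ccno, Cdc20b and Deup1 are each lighter in the 3 P0-NPCs samples than in all other samples, while Foxj1 is bright in every sample.

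Tmem212, Ccdc153 and Dynlrb2 had the widest range of group means in FPKM. Tmem212 was covered by 0, 0 and 1 fragments in ASTs and was 2.29, 1.59 and 2.14 FPKM in A-iSCs, 93.4, 82.3 and 114 in P56-NPCs, and 1.34, 2.49 and 0.862 in P0-NPCs. Its level in P56-NPCs was the highest of the 10 genes in any group by mean (96.4 ± 15.9 FPKM, SD, n = 3), which was 48.2 times the mean of A-iSCs and 61.6 times that of P0-NPCs. A-iSCs and P0-NPCs overlapped, with a log2 difference of 0.27 (95% confidence interval -0.26 to 0.80, limma adjusted p = 0.332), and the difference was 0.52 without P0-NPCs replicate 2 (limma adjusted p = 0.0401). Tmem212 rose in A-iSCs over ASTs by 1.54 on the log2(FPKM + 1) scale (SE 0.13, limma adjusted p = 7.47e-05).

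Ccdc153 followed the same order of groups by mean, with A-iSCs and P0-NPCs overlapping. Its FPKM was 0.146, 0.509 and 0.291 in ASTs, 3.31, 3.12 and 4.25 in A-iSCs, 62.7, 51.8 and 67.8 in P56-NPCs, and 2.68, 6.17 and 1.57 in P0-NPCs. The A-iSCs mean was 11.3 times the ASTs mean, with a log2 difference of 1.80 (SE 0.15, limma adjusted p = 7.48e-05), and no A-iSCs sample was as low as an ASTs sample. P56-NPCs were 17.1 times A-iSCs and 17.5 times P0-NPCs by mean. P0-NPCs replicate 2 was the highest of its group for Ccdc153, as it was for Tmem212, and without it the P0-NPCs mean was 2.13 in place of 3.48 FPKM. Without P0-NPCs replicate 3 that mean was 4.43 FPKM, above the A-iSCs mean of 3.56, so that the order of these 2 groups was not settled.

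On the log2(FPKM + 1) scale, Dynlrb2 had the largest difference of the members tested between A-iSCs and ASTs, whereas on the fragments Tmem212 (5.2) and Rsph4a (3.96) exceeded it (3.73). Its FPKM was 0.858, 1.33 and 1.26 in ASTs, 14.9, 16.9 and 15.4 in A-iSCs, 51.9, 41.3 and 70.6 in P56-NPCs, and 28.8, 26.4 and 21.7 in P0-NPCs. The 4 groups did not overlap, and each step in this order was called. A-iSCs were 13.7 times ASTs by mean (log2 difference 2.97, SE 0.13, limma adjusted p = 5.56e-06), P0-NPCs 1.63 times A-iSCs, and P56-NPCs 2.13 times P0-NPCs (log2 difference 1.04, SE 0.19, limma adjusted p = 0.00143, and 0.42 with scaling by library size alone, limma adjusted p = 0.0868). Its paralog Dynlrb1, a light chain of the dynein that all cells use, had the reverse order by mean, at 303, 195, 138 and 147 FPKM in ASTs, in A-iSCs, in P56-NPCs and in P0-NPCs, but its ASTs and A-iSCs ranges overlapped (limma adjusted p = 0.104). Reads that fit both paralogs equally well, if any, cannot be assigned from the table.

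**Figure D2:**
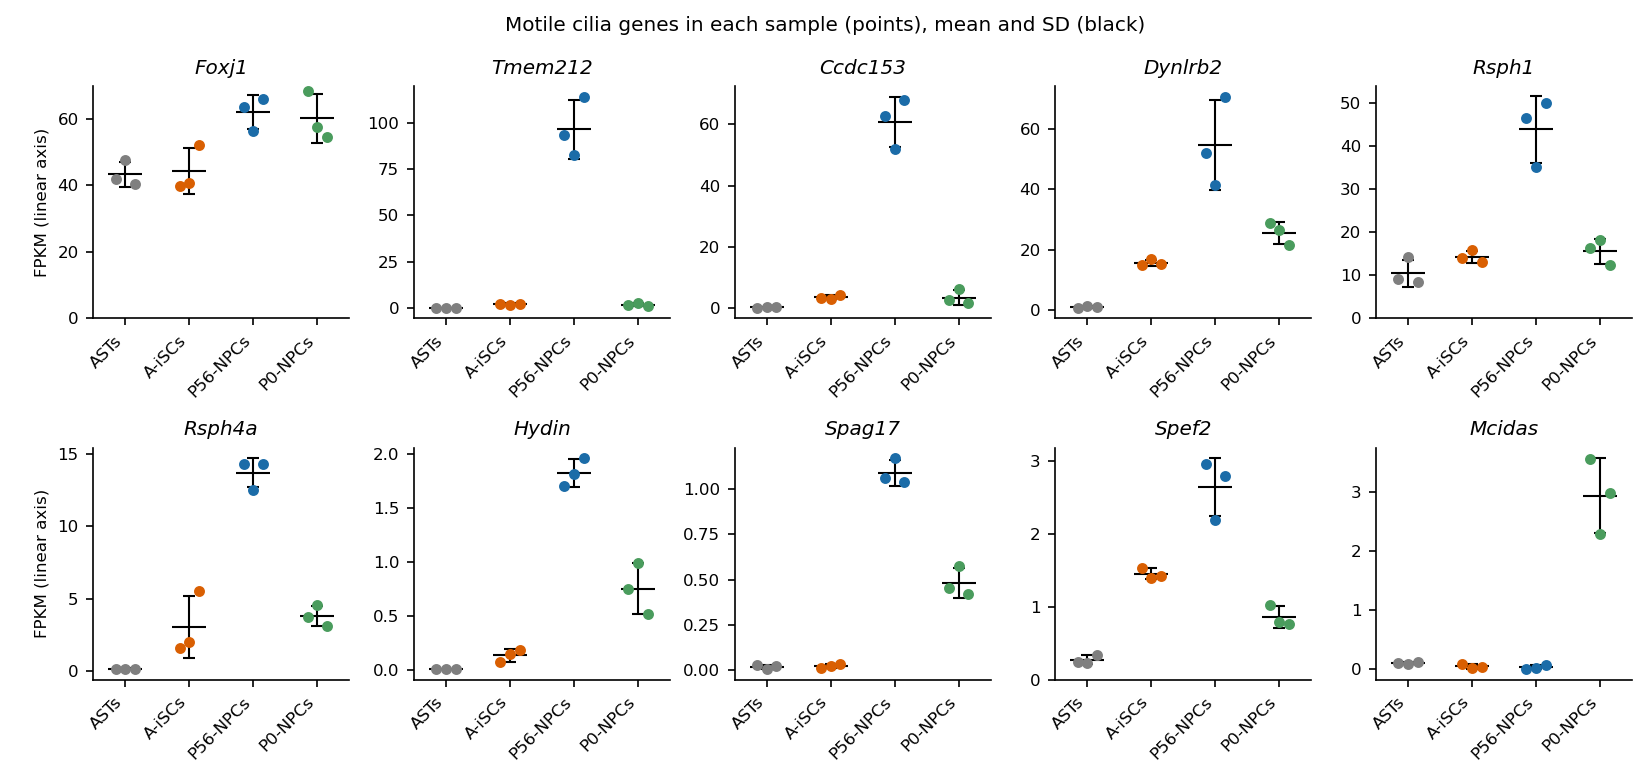
FPKM of the 10 motile cilia genes on linear axes that differ between panels. Points are the 3 samples of each of the 4 groups, and black marks are the mean and SD. P56-NPCs have the highest mean in 9 panels, by a margin of 1.03 times over P0-NPCs in Foxj1, whose order turns with scaling by library size alone, and P0-NPCs have the highest mean in Mcidas.

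The radial spoke head genes differed in how far A-iSCs departed from ASTs. Rsph1 was already present in ASTs, at 9.04, 14.2 and 8.40 FPKM, and was 14, 15.8 and 13.1 in A-iSCs, 46.5, 35.1 and 50.1 in P56-NPCs, and 16.3, 18.1 and 12.4 in P0-NPCs. ASTs replicate 2 lay within the range of A-iSCs, and the log2 difference between A-iSCs and ASTs of 0.44 was not called (95% confidence interval -0.02 to 0.89, limma adjusted p = 0.0926). It was called without ASTs replicate 2 (0.65, limma adjusted p = 0.0076), with scaling by library size alone (0.64, limma adjusted p = 0.0219) and with the replicate number as a block (0.44, limma adjusted p = 0.0354). In P56-NPCs the mean of Rsph1 was 4.17 times that of ASTs (log2 difference 1.98, SE 0.21, limma adjusted p = 8.96e-05).

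Rsph4a was close to absent in ASTs, with 11, 14 and 9 fragments (0.180, 0.189 and 0.133 FPKM). It was 1.59, 2.04 and 5.52 FPKM in A-iSCs, 14.3, 12.5 and 14.3 in P56-NPCs, and 3.76, 4.55 and 3.14 in P0-NPCs. A-iSCs were above all ASTs samples, with a log2 difference of 1.67 (SE 0.32, limma adjusted p = 0.00379), but A-iSCs replicate 3 was well above the other 2 samples of its group. Without that sample the A-iSCs mean was 1.81 in place of 3.05 FPKM and the log2 difference was 1.27 (limma adjusted p = 0.000208). The comparison with P0-NPCs also turned on it, since A-iSCs and P0-NPCs differed by -0.36 with all samples (limma adjusted p = 0.352) and by -0.77 without A-iSCs replicate 3 (limma adjusted p = 0.00204). Rsph6a, the testis paralog of Rsph4a, was at 0 to 9 fragments per group.

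The central pair genes had low FPKM, in part over very long transcripts, and they did not move alike in A-iSCs. Spef2 was 0.247, 0.239 and 0.348 FPKM in ASTs, 1.54, 1.40 and 1.43 in A-iSCs, 2.96, 2.20 and 2.80 in P56-NPCs, and 1.03, 0.800 and 0.762 in P0-NPCs. The A-iSCs mean was 5.24 times that of ASTs (log2 difference 0.94, SE 0.11, limma adjusted p = 0.000315). A-iSCs also lay above all P0-NPCs samples, by a log2 difference of 0.40 (SE 0.11, limma adjusted p = 0.014). Spef2 was lower in A-iSCs than in P56-NPCs by -0.57 (limma adjusted p = 0.00403), a call that was lost with scaling by library size alone (-0.19, limma adjusted p = 0.162).

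Hydin, with a transcript length of 18037 bases, was covered by 4, 4 and 6 fragments in ASTs, 28, 65 and 92 in A-iSCs, 533, 523 and 583 in P56-NPCs, and 312, 520 and 258 in P0-NPCs. Per length this was at most 0.0179 FPKM in ASTs, 0.0770 to 0.190 in A-iSCs, 1.70 to 1.96 in P56-NPCs and 0.519 to 0.990 in P0-NPCs, and no 2 groups overlapped. Hydin was below the filter between A-iSCs and ASTs. On the fragments it rose by 3.15 (SE 0.55, limma-voom adjusted p = 0.00151), and without the filter the difference on the log2(FPKM + 1) scale was 0.17 (SE 0.04, limma adjusted p = 0.0263). By mean, P56-NPCs were 13.1 times A-iSCs and 2.41 times P0-NPCs.

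Spag17 showed no such step in A-iSCs. It was covered by 4, 1 and 4 fragments in ASTs, 2, 5 and 8 in A-iSCs, 156, 160 and 146 in P56-NPCs, and 88, 142 and 98 in P0-NPCs. ASTs and A-iSCs overlapped, and a difference between them was not detectable at these counts. Spag17 was below the filter in this comparison, and without the filter the log2 difference was 0.01 (SE 0.02, limma adjusted p = 0.852). P56-NPCs, at 1.06, 1.17 and 1.04 FPKM, were 2.27 times P0-NPCs by mean (log2 difference 0.50, SE 0.10, limma adjusted p = 0.00185). Spag17 overlaps Wdr3 on the other strand of chromosome 3, a gene with 197 to 831 fragments per sample, and reads of their overlap cannot be told apart if the counting ignored strand, which is not given in the sources used here.

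Relative to the mean of P56-NPCs, the 9 genes other than Mcidas covered a wide range in A-iSCs. Foxj1 was at 71.5 ± 11.1% of that mean (SD, n = 3), Spef2 at 54.9 ± 2.87%, Rsph1 at 32.6 ± 3.21%, Dynlrb2 at 28.8 ± 1.86% and Rsph4a at 22.2 ± 15.7%. Hydin was at 7.66 ± 3.16%, Ccdc153 at 5.86 ± 0.995%, Spag17 at 2.19 ± 1.08% and Tmem212 at 2.08 ± 0.382%. ASTs were already at 69.9% for Foxj1 and 24.0% for Rsph1, at 10.5% for Spef2, and at 2.1% or less for the others. These percentages hold for the deposited scaling, and with scaling by library size alone the log2 difference of A-iSCs with P56-NPCs was 0.06 for Foxj1 and -0.19 for Spef2, neither of them called. The genes therefore differed among themselves by far more than the A-iSCs samples did, and genes of the same structure stood apart, as Spef2 and Spag17 did in the central pair. P0-NPCs had another profile, with Hydin at 41.4 ± 12.9%, Spag17 at 44.1 ± 7.48% and Dynlrb2 at 46.9 ± 6.62%, but Tmem212 at 1.62 ± 0.870% and Ccdc153 at 5.72 ± 3.95%.

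**Figure D3:**
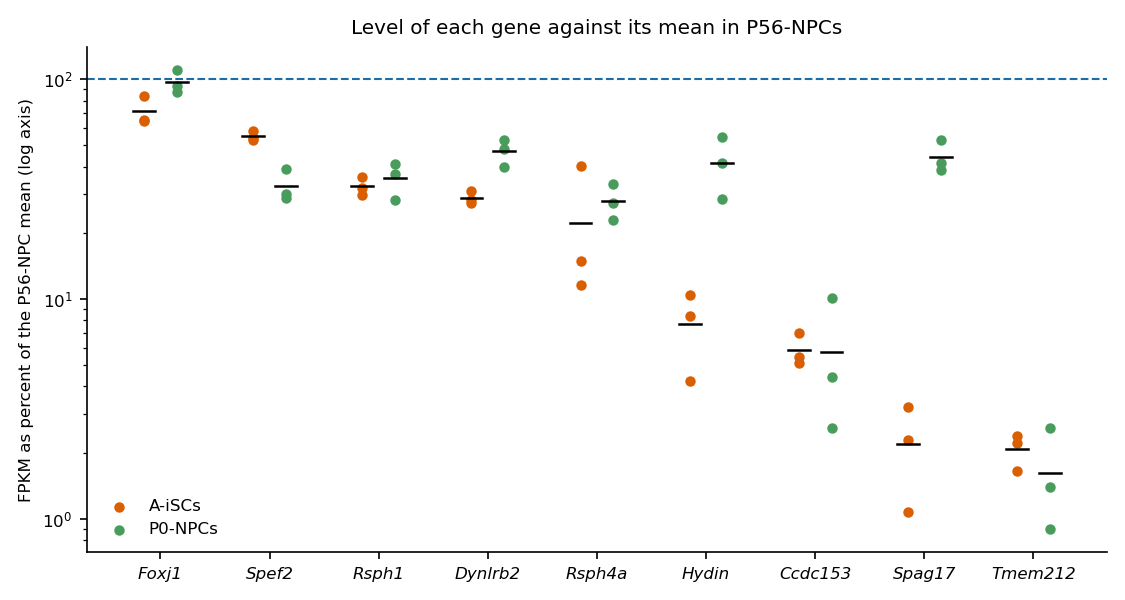
FPKM of 9 genes as a percent of the P56-NPCs mean (log axis, dashed line at 100) in the 3 samples of A-iSCs and P0-NPCs, with bars at the means. A-iSCs run from 71.5% for Foxj1, which turns to a log2 difference of 0.06 above P56-NPCs with scaling by library size alone, to about 2% for Spag17 and Tmem212, and the groups stand widest apart in Spag17 and Hydin.

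A ratio within a sample does not depend on how samples are scaled, so the members were also set against Foxj1. The FPKM of Tmem212 per FPKM of Foxj1 was 1.46 to 1.72 in P56-NPCs, 0.0390 to 0.0572 in A-iSCs and 0.0158 to 0.0433 in P0-NPCs. For Ccdc153 this ratio was 0.921 to 1.03 in P56-NPCs, 0.0768 to 0.0830 in A-iSCs, 0.0288 to 0.107 in P0-NPCs, which overlapped with A-iSCs, and 0.00349 to 0.0107 in ASTs. For Dynlrb2 it was 0.735 to 1.07 in P56-NPCs, 0.399 to 0.459 in P0-NPCs, 0.295 to 0.415 in A-iSCs and 0.0204 to 0.0312 in ASTs. ASTs thus held Foxj1 RNA with little RNA of these 3 genes, and A-iSCs held more of each per Foxj1 than any ASTs sample. The same held for Rsph4a, Hydin and Spef2. For Rsph1 the ratios overlapped (0.208 to 0.297 in ASTs and 0.250 to 0.390 in A-iSCs), as they did for Spag17 and Mcidas. The mean ratio of Mcidas was lower in A-iSCs (0.00104) than in ASTs (0.00231).

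The calls of the 10 genes are set here against those of all genes tested, of which many were called in every comparison. Between A-iSCs and ASTs, 7 of the 10 genes passed the filter and 5 were called higher (Tmem212, Ccdc153, Dynlrb2, Rsph4a and Spef2), 0 were called lower, and Foxj1 and Rsph1 were not called. Of all 14087 genes tested, 25.2% were called higher and 29.6% lower. Hydin, Spag17 and Mcidas did not pass the filter. On the fragments, 8 of the 10 genes could be tested and Hydin joined the 5 genes called higher, compared with 26.9% of 16827 genes called higher and 27.2% called lower. A gene that passed the filter through its high group alone had to differ, so the counts are a description of these genes and carry no test of the list.

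In P56-NPCs with ASTs, 9 of the 10 genes were tested and 9 were called higher, compared with 39.1% of all genes tested (39.8% were called lower). On the fragments the same 9 genes were tested and higher (40.8% of all genes were higher and 37.3% lower). Mcidas was below the filter. Beside Foxj1, the log2 differences ran from 1.04 in Spag17 to 6.56 in Tmem212. In P0-NPCs with ASTs, 7 of the 10 genes were tested and 7 were called higher, compared with 38.1% of all genes (40.9% were called lower). The smallest of these, Rsph1 (0.54, SE 0.20, limma adjusted p = 0.0384), was not called without filter, with upper-quartile scaling, or without any of 4 samples (ASTs replicates 1 and 3 and P0-NPCs replicates 1 and 2), where it ranged from 0.41 to 0.51. Hydin, Spag17 and Spef2, under 1 FPKM by mean in both groups, were not in that test, and on the fragments they were higher in P0-NPCs by 5.59, 4.63 and 1.62 (limma-voom adjusted p = 8.45e-06, 1.13e-05 and 7.46e-05). That test called all 10 genes higher, compared with 40.4% of all genes called higher and 37.3% called lower. These comparisons share the ASTs samples.

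Between A-iSCs and P56-NPCs, 9 of the 10 genes were tested and 9 were lower in A-iSCs, compared with 30.9% of all genes tested (30.1% were higher). The fragments gave the same count, with 30.9% of all genes lower and 27.7% higher. The call of Foxj1 was lost without any of 4 samples (A-iSCs replicates 1 and 2 and P56-NPCs replicates 1 and 3), where it ranged from -0.46 to -0.42, and its direction turned with scaling by library size alone (0.06), where 6 genes were lower because Spef2 was not called and Spag17 not tested either. Between A-iSCs and P0-NPCs, 8 of the 10 genes were tested. Spef2 was higher in A-iSCs (31.5% of all genes were), whereas Foxj1, Dynlrb2 and Mcidas were lower (33.6% of all genes were). Foxj1, at -0.44 (limma adjusted p = 0.0335), was not called without filter, with the replicate number as a block, or without any of 4 samples (A-iSCs replicates 1 and 2 and P0-NPCs replicates 1 and 2). On the fragments, Hydin and Spag17 were lower in A-iSCs as well, by -2.43 and -4.26 (limma-voom adjusted p = 0.000336 and 2.93e-05). That made 1 higher and 5 lower of 10 genes, compared with 29% and 34.4% of all genes.

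Between P56-NPCs and P0-NPCs all 10 genes were tested. P56-NPCs were higher in 8 genes, compared with 39.7% of all genes, and lower in Mcidas, compared with 39% of all genes. On the fragments the counts were also 8 and 1, compared with 37.5% and 37.8% of all genes. The counts became 6 and 2 when samples were scaled by library size alone, as Dynlrb2 was not called, Spag17 was not tested and Foxj1 was lower (-0.57). The log2 differences of the 8 genes ran from 0.50 in Spag17 to 5.28 in Tmem212. The NPC groups differ in brain region and in age alike, and the contributions of these cannot be told apart.

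The other genes of the motile cilium were described through 9 lists with 101 genes in all, 10 of them the genes above. Between A-iSCs and ASTs, 69 of the 101 genes were tested, 47 of them had a higher and 3 a lower level in A-iSCs, and the median log2 difference of those tested was 0.92, compared with 25.2% higher, 29.6% lower and a median of -0.06 over all genes tested. A list gene that passed the filter through its high group alone had to differ, and the lists were chosen with earlier results of these data known. The counts and medians of the lists, here and below, are therefore a description and carry no test. In the central pair list 7 of 11 genes were tested and 7 were higher, such as Spef1 (1.16) and Spag6l (0.93). In the radial spoke list 9 of 10 were tested and 5 were higher, among them Rsph9 (1.46) and Nme5 (1.40). In the inner dynein arm list 2 of 9 were tested and both were higher, the light chain gene Dnali1 (1.89) and Dnah7b (0.97, named after its value was seen), whereas Dnah6 was 0.0122 to 0.0372 FPKM in ASTs and 0.266 to 0.546 in A-iSCs and below the filter. The outer dynein arm list had 6 of 8 tested genes higher, but not Dnaic1 and Dnal1, whose means were 1.47 and 5.58 FPKM in ASTs and 1.46 and 5.61 in A-iSCs. In the regulator list 6 of 12 were tested and 2 were higher, Rfx2 and Rfx3 (33.3%, compared with 25.2% of all genes). With scaling by library size alone 4 of 6 regulators were higher (compared with 4563 of 14297 genes), and on the fragments 4 of 10 (compared with 26.9% of all genes). The remaining lists gave 5 of 7 nexin link and ruler genes (Drc7, 1.33, and Drc1, 0.92), 3 of 4 dynein assembly factors (Zmynd10, 0.97, and Dnaaf3, 0.58), 7 of 13 microtubule inner proteins (Enkur, 0.94) and 10 of 13 other ependymal genes (Pltp, 0.67).

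Among the genes that passed the filter, the largest differences between A-iSCs and ASTs on the log2(FPKM + 1) scale were those of Dynlrb2, Tekt1 (2.85), Fam183b (2.19), Cfap126 (1.91) and Dnali1. Tekt1, which encodes a filament protein inside the axonemal doublets, was 0.166 to 0.274 FPKM in ASTs and 6.92 to 9.08 in A-iSCs (limma adjusted p = 6.35e-06). The smallest differences among the called genes were those of Dnaic2 (0.50) and Tekt4 (0.49), and the 3 genes that fell were Dnaaf5 (-0.45, limma adjusted p = 0.0118), Mns1 (-0.59, limma adjusted p = 0.0145) and Ecrg4 (-0.73, limma adjusted p = 0.0277). Ecrg4, a secreted peptide precursor of choroid plexus and ependyma, was 148 to 229 FPKM in ASTs and 83.3 to 117 in A-iSCs. With scaling by library size alone, Dnaaf5 and Ecrg4 were no longer called, and with upper-quartile scaling Dnaic2 was not.

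Between A-iSCs and P56-NPCs, 91 of the 101 genes were tested, with 63 lower and 8 higher in A-iSCs and a median of -0.89, compared with 30.9% lower, 30.1% higher and a median of 0.03 over all genes. The radial spoke list was divided, since 4 genes were lower (Rsph1, Rsph4a, Rsph10b and Rsph14) and 3 higher (Dnajb13, Ropn1l and Rsph3a), where Rsph10b, Rsph14, Dnajb13, Ropn1l and Rsph3a were named after their values were seen. Dnajb13, a spoke protein, was 5.45 to 5.96 FPKM in A-iSCs and 3.44 to 5.00 in P56-NPCs. Nme5 and Rsph9 also had higher means in A-iSCs, 22.1 and 22.9 against 18.2 and 16.5 FPKM, but were not called (limma adjusted p = 0.281 and 0.0557). The count of higher genes was 14 without A-iSCs replicate 3 and 20 with scaling by library size alone. Between P56-NPCs and P0-NPCs, 67 of 93 tested genes were higher and 13 lower in P56-NPCs (39.7% and 39% of all genes were), 8 of the latter being regulators (E2f4, Rfx3, Trp73, Ccno, Deup1, Cdc20b, Myb and Mcidas), and the counts were 44 and 26 with scaling by library size alone.

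**Figure D4:**
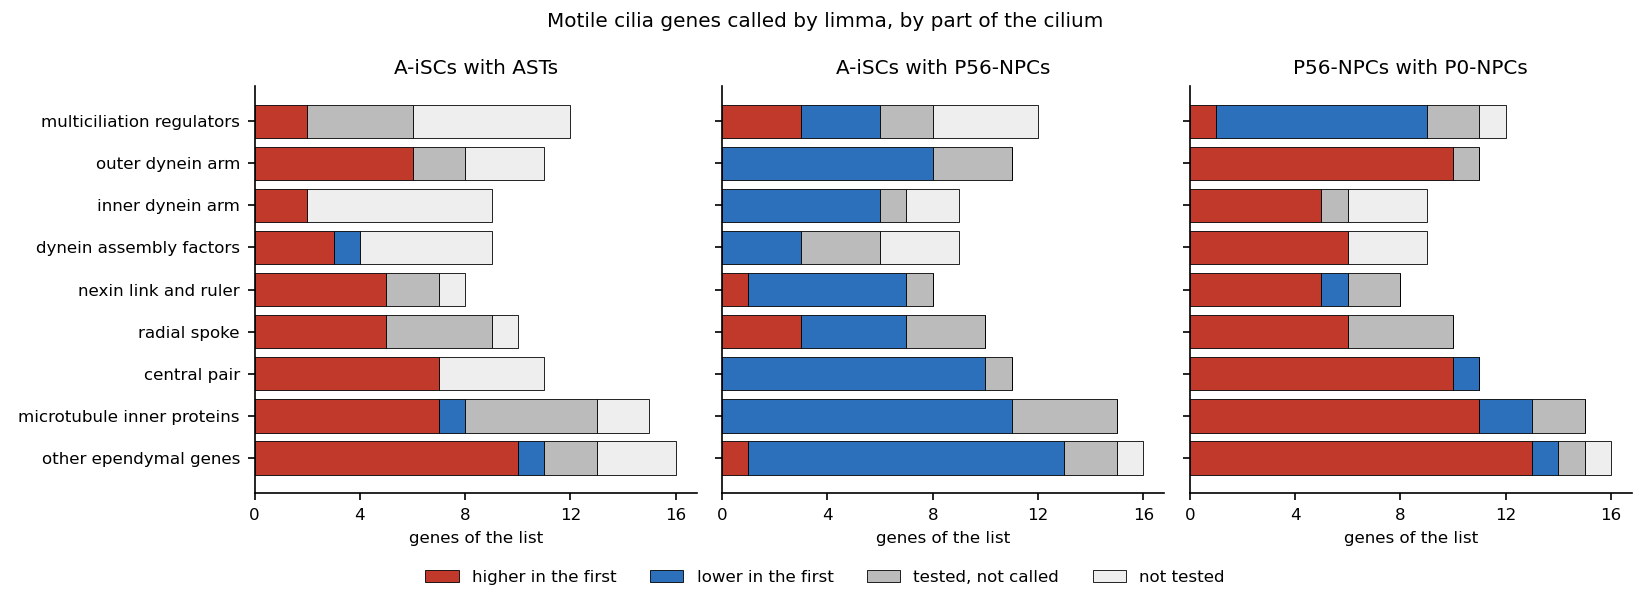
Number of genes of 9 motile cilia lists that limma called higher (red) or lower (blue) in the first group, tested but did not call (grey), or did not test (pale) in 3 comparisons. The called genes of the structural lists are mostly red between A-iSCs and ASTs and mostly blue between A-iSCs and P56-NPCs, where the radial spoke list holds 3 red and 4 blue genes. Between P56-NPCs and P0-NPCs the regulators are mostly blue while the structural lists are mostly red, and with scaling by library size alone that panel holds 44 higher and 26 lower genes.

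Across all 101 genes, the mean was highest in P56-NPCs in 69, in P0-NPCs in 15, in A-iSCs in 11 and in ASTs in 6. The count of A-iSCs includes Pih1d3, which had 0 fragments in every group and so no highest group. To find the genes most like the 10, the mean log2(FPKM + 1) of these was correlated over the 12 samples with 13650 protein-coding genes. The 5 genes with the highest Pearson correlation were Ak8 (0.996), Drc3 (0.994), Dnah11 (0.994), Cfap299 (0.992) and Cdkl4 (0.992), of which Drc3 and Dnah11 are in the motile cilia lists. Ak8 had means of 0.0912, 1.18, 5.79 and 1.81 FPKM in ASTs, in A-iSCs, in P56-NPCs and in P0-NPCs. The median correlation was 0.86 over the 84 other genes of the motile cilia lists in this set and -0.03 over all genes. A correlation above 0.9 was found for 36 of these 84 genes and for 886 of all 13650. The latter included genes of other kinds, such as Cldn11 of the oligodendrocyte list (0.9875), so that the pattern was not particular to ciliary genes. The 12 points fall into 4 groups and share libraries, so that these values describe a common pattern over 4 groups.

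Genes of the primary cilium, which most cells of the brain carry, differed less between groups in their summed FPKM, as deposited, than the motile cilia genes did. The summed FPKM of 28 genes for intraflagellar transport and the primary cilium was 208 to 229 in ASTs, 224 to 250 in A-iSCs, 237 to 253 in P56-NPCs and 212 to 228 in P0-NPCs. The summed FPKM of the 10 motile cilia genes was 51.0 to 64.2, 77.8 to 94.3, 285 to 388 and 98.7 to 127 in the same order. All 28 primary cilium genes were tested between A-iSCs and ASTs, with 9 higher (32.1%, compared with 25.2% of all genes), 1 lower (3.57%, compared with 29.6%) and a median of 0.17. The counts of the other comparisons depended on the scaling, and several were near the share over all genes. In P56-NPCs with ASTs, 11 were higher (39.3%, compared with 39.1% of all genes) and 4 lower, and with scaling by library size alone these were 6 and 11. In P0-NPCs with ASTs, 12 were higher (42.9%, compared with 38.1%) and 12 lower (compared with 40.9%), and with that scaling 13 and 4. In P56-NPCs with P0-NPCs, 13 were higher (46.4%, compared with 39.7%) and 6 lower (21.4%, compared with 39%), and with that scaling 3 and 18. A-iSCs against P56-NPCs had 4 higher (14.3%, compared with 30.1%) and 3 lower, which became 17 and 0, and against P0-NPCs 8 higher (28.6%, compared with 31.5%) and 3 lower, which became 5 and 3. Arl3 and Ift20, the 2 highest of them in P56-NPCs, had means of 50.8 and 23.1 FPKM in ASTs and 45 and 20.8 in A-iSCs.

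Markers of other cells that the suspensions could hold moved with the groups. The choroid plexus list of 10 genes, whose epithelium is also ciliated, summed to 8.77 to 10.3 FPKM in ASTs, 5.43 to 6.62 in A-iSCs, 1508 to 3203 in P56-NPCs and 755 to 3872 in P0-NPCs, and it was led by the transthyretin gene Ttr. In P56-NPCs with ASTs 10 of 10 were higher, and in P0-NPCs with ASTs 8 of 8 tested, whereas in A-iSCs with ASTs 0 of 5 tested were higher and 3 lower (Ttr, Aqp1 and Sostdc1, the latter 2 named after their values were seen). Over all genes tested, 39.1%, 38.1% and 25.2% were higher in these comparisons, in the same order, and 29.6% were lower in the last. Ttr was 0.460 to 1.56 FPKM in A-iSCs and 2.37 to 2.95 in ASTs, and Clic6 was at most 0.0380 in A-iSCs and at most 0.0762 in ASTs. No gene of the list was above 3.01 FPKM in either culture. Within P0-NPCs, replicate 2 had the lowest Ttr (725 FPKM, compared with 3747 in replicate 1 and 2265 in replicate 3). The same replicate was the highest of its group for Tmem212, Ccdc153, Rsph1, Rsph4a, Hydin and Spag17, whereas Foxj1, Dynlrb2, Spef2 and Mcidas were highest in replicate 1, as Ttr was. The part of choroid plexus RNA in the levels of P56-NPCs and P0-NPCs was not tested.

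The oligodendrocyte list summed to 12274 to 14148 FPKM in P56-NPCs and at most 87.1 in any other group, with Mbp at 4994 to 5660 and Mobp at 2394 to 2704 in P56-NPCs. It also moved with A-iSCs, where it summed to 63.2 to 87.1 FPKM, compared with 19.0 to 20.7 in ASTs, and 5 of 5 tested genes were higher than in ASTs, such as Mbp (2.01). Over all genes tested between A-iSCs and ASTs, 25.2% were higher and 29.6% lower, which are the shares to set beside the counts of this comparison below. The microglia list summed to 2059 to 2829 FPKM in A-iSCs, 815 to 868 in P56-NPCs, 207 to 238 in ASTs and 129 to 153 in P0-NPCs, and of 9 tested genes 9 rose from ASTs to A-iSCs, such as C1qa (3.54) and C1qb (3.75). Against P56-NPCs, 5 of 10 were higher in A-iSCs (compared with 30.1% of all genes) and 3 lower (compared with 30.9%). The lower ones were P2ry12, Tmem119 and Siglech, named after their values were seen, so that the sum does not describe all genes of the list. The neuroblast list was highest in P0-NPCs (964 to 1212 FPKM, compared with 152 to 184 in P56-NPCs, 89.5 to 127 in ASTs and 50.6 to 78.9 in A-iSCs), led by Tubb3 in P56-NPCs and followed there by Cdk5r1. Although its sum was lower in A-iSCs than in ASTs, 4 of 7 tested genes were higher there (Cdk5r1, Dcx, Gad1 and Dlx5) and 1 lower (Stmn2), where all but Cdk5r1 were named after their values were seen. The endothelial list was also highest in P0-NPCs (87.3 to 94.6 FPKM, at most 11 elsewhere), with Cldn5 at 49.4 to 53.4 and Ly6c1 at 3.20 to 3.88. The tanycyte list, for ventricular cells without tufts of motile cilia, summed to 94.6 to 110 in ASTs, 240 to 379 in A-iSCs, 454 to 520 in P56-NPCs and 644 to 734 in P0-NPCs, mostly through Nnat. Its genes did not follow the sum between A-iSCs and ASTs, as 1 of 6 tested genes was higher (Nnat) and 4 lower (Lhx2, -1.08, and Adm, Vcan and Cd59a, the latter 3 named after their values were seen), with 2 higher and 3 lower when scaled by library size alone, and 2 higher and 5 lower of 10 on the fragments. On the fragments, 26.9% of all genes were higher and 27.2% lower. The list for adult stem and transit amplifying cells had its highest sum in A-iSCs (1063 to 1983 FPKM), carried mainly by Gfap (658 to 1483). Of its 9 genes tested between A-iSCs and ASTs, 5 were higher (55.6%, compared with 25.2% of all genes) and 2 lower (22.2%, compared with 29.6%). The lower ones were Nes and Egfr, named after their values were seen. Slc1a3 was 74.8 to 205 FPKM in A-iSCs but 349 to 374 in P56-NPCs. A-iSCs replicate 3, the sample with the high Rsph4a, was the highest of its group for Gfap and Slc1a3. Whether any of these cells contributed to the levels of the motile cilia genes was not tested.

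**Figure D5:**
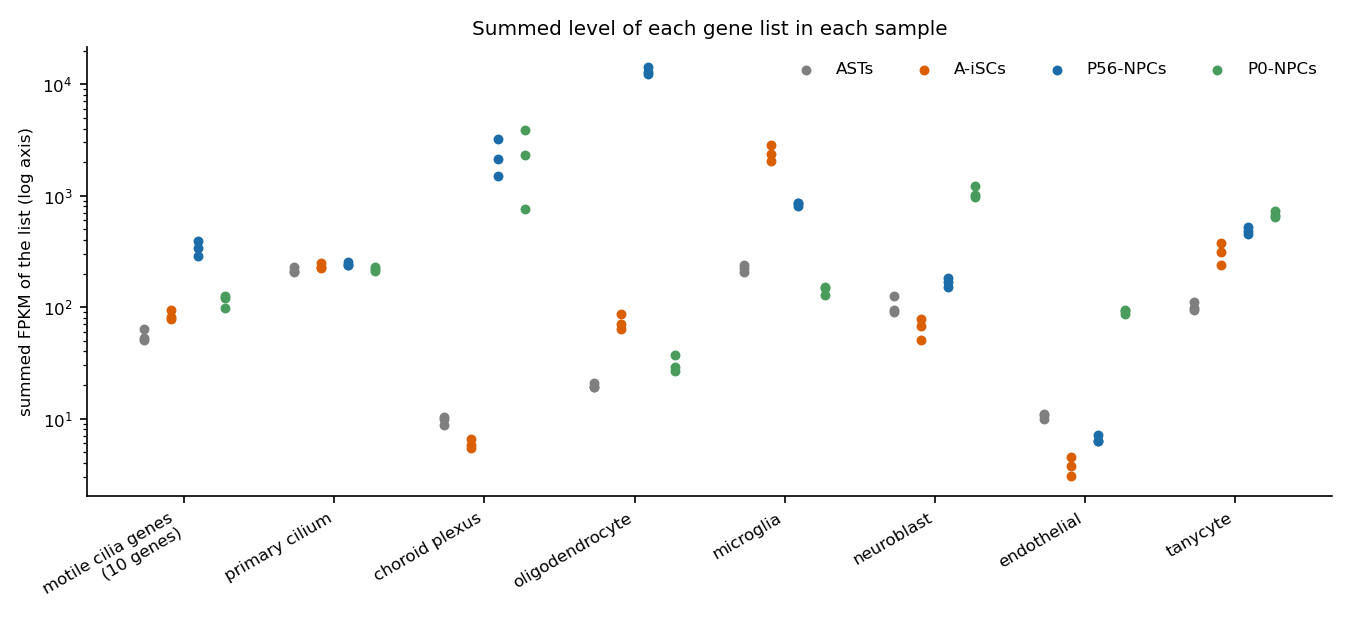
Summed FPKM (log axis) of the 10 motile cilia genes and of 7 lists of other genes in each of the 12 samples, coloured by group. The primary cilium sums lie between 208 and 253 in all samples, and the choroid plexus sums are at most 10.3 in ASTs and A-iSCs and at least 755 in both NPC groups.

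Gmnn, a relative of Mcidas and Gmnc that controls DNA replication, fell in A-iSCs. Its FPKM was 15.1, 24.3 and 15.7 in ASTs, 6.54, 5.48 and 6.39 in A-iSCs, 3.22, 3.19 and 2.40 in P56-NPCs, and 4.80, 3.61 and 4.09 in P0-NPCs. The log2 difference between A-iSCs and ASTs was -1.41 (SE 0.19, limma adjusted p = 0.000653), the opposite direction to that of most motile cilia genes tested in this comparison.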

How the data were processed

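RNA of 12 samples in 4 groups of 3 was analysed. Per the submitters' processing notes, Bowtie 0.12.2 and the build mm8 were used. The values deposited by the authors are FPKM, found from the values themselves, since FPKM multiplied by the deposited gene length gave whole multiples of 1 step per sample (tolerance 0.02). The gene lengths in bases were also deposited. Gene positions were those of GRCm38, as 54899 of the 55154 identifiers also found in GENCODE M21 lay at the same position. The library sizes behind the FPKM were 0.744 to 1.22 times the counted fragments, so that the values already held a scaling between samples. The floor of 3 fragments covers counting error only.

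Groups were compared 2 at a time with limma 3.58.1 in R 4.3.3 on log2(FPKM + 1), with a trend in the variance, on every gene whose mean reached 1 FPKM in either group. limma-voom was run on recovered fragments of genes with at least 10 fragments in at least 3 samples. Both were run on simulated data as a check of the code, which does not measure their accuracy on these data. Alternatives were a pseudocount of 0.1, no filter, scaling by library size alone or by the upper quartile, all 4 groups in 1 model, the replicate number as a block and leaving out each sample. Named were the 10 genes, the 2 highest genes of each list in P56-NPCs, all 12 regulators, the 5 largest and 5 smallest differences of A-iSCs with ASTs, paralogs and the 5 genes most correlated. The members and lists were chosen with earlier results of these data known. Promoters were from RefSeq. Python 3.11.15 with pandas 2.3.3 and matplotlib 3.10.9 was used. No sample was left out.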

Additional observations from a re-analysis of the deposited data

How the results depend on the processing

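The numbers of members called stayed within 1.5 times under the alternatives other than leaving out samples, except for A-iSCs with P0-NPCs, where limma-voom called 5 in place of 3 lower, and for P56-NPCs with P0-NPCs, where scaling by library size alone called 2 in place of 1 lower. The latter scaling shifted the median log2 difference of all genes from -0.06, -0.03, -0.07, 0.03, -0.02 and 0.01 to 0.13, -0.34, 0.21, 0.49, -0.09 and -0.53 (A-iSCs, P56-NPCs and P0-NPCs with ASTs, A-iSCs with P56-NPCs and with P0-NPCs, and P56-NPCs with P0-NPCs), and upper-quartile scaling to -0.17, -0.17 and -0.16 in the first 3. Of all calls, the share of higher ones went with scaling by library size alone from 46 to 60.4%, from 49.5 to 37.7%, from 48.2 to 59.4%, from 49.4 to 74.5% and from 50.4 to 26.7% (in the same order, without A-iSCs with P0-NPCs). With it, motile cilia list genes called lower were 1, 12 and 5 with ASTs for A-iSCs, P56-NPCs and P0-NPCs, those higher in A-iSCs than in P56-NPCs 20, and those in P56-NPCs with P0-NPCs 44 higher and 26 lower.

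Directions turned for Foxj1 in A-iSCs with ASTs (-0.10 with upper-quartile scaling, and -0.10 to 0.09 on leaving out single samples), in A-iSCs with P56-NPCs (0.06) and in P56-NPCs with P0-NPCs (-0.57, both with scaling by library size alone, and -0.02 to 0.14 on leaving out single samples). They also turned on leaving out single samples in A-iSCs with P0-NPCs, for Ccdc153 (-0.18 to 0.56) and Rsph1 (-0.25 to 0.01). The cause was not tested. On leaving out single samples, 6 to 14 motile cilia genes exceeded P56-NPCs in A-iSCs (14 without A-iSCs replicate 3), and 1 to 2 members exceeded P0-NPCs in A-iSCs (2 without P0-NPCs replicate 2, Tmem212 being added).

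With the replicate number as a block, 6 members were higher in the comparison of A-iSCs with ASTs, Rsph1 being added (0.44, limma adjusted p = 0.0354), and the Foxj1 call in A-iSCs with P0-NPCs was lost (limma adjusted p = 0.071). Deviations of A-iSCs and ASTs of the same number correlated at -0.422, 0.372 and 0.483, and those of other groups at -0.164 to 0.121, so that the numbers were not taken to pair samples. With scaling by library size alone, Spag17 did not pass the filter in any comparison. Depth limits Mcidas, Spag17 and Hydin in ASTs and A-iSCs, where few fragments lay behind each value.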
